A study of Homo sapiens with 6 samples.

Results

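The BCL2 family members examined were 10 genes chosen by name: the anti-apoptotic genes BCL2, BCL2L1, MCL1 and BCL2A1, the effectors BAX and BAK1, and the BH3-only genes BID, BCL2L11, PMAIP1 and BIK. All 10 were among the 16390 genes listed in each library, and 9 of them were among the 13055 genes that passed the filter on low counts. BCL2A1 did not pass it. They were measured by RNA sequencing in SW780, a line of human bladder cancer cells used by the study as a luminal type. The 3 RC48 libraries came from SW780 cells exposed to RC48 at 25 µg/ml, and the 3 Control libraries from SW780 cells without it. The exposure time of this experiment was not given in the sources used here. RC48 (disitamab vedotin) is an antibody directed at ERBB2 that is coupled to monomethyl auristatin E, an inhibitor of microtubule assembly. Both groups are one cell line, and the labels do not say whether the libraries of a group came from separate cultures, so p-values measure only the spread between these libraries.

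The BCL2 family controls whether the outer membrane of the mitochondrion stays intact. BAX and BAK1 can form pores in it and release cytochrome c, which starts caspase activation. The anti-apoptotic proteins hold BAX, BAK1 and the BH3-only proteins in check, and the BH3-only proteins, induced or activated by different kinds of stress, bind and block the anti-apoptotic proteins or activate BAX and BAK1 directly. In cells held in mitosis by a microtubule inhibitor, MCL1 protein is known to be degraded, and survival then depends more on BCL2L1. Protein levels are not measured by RNA sequencing.

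The libraries held 16453233 to 17988030 estimated counts each. Levels within a gene are given as counts per 1000000 counts after TMM scaling (CPM), and levels of different genes are compared as TPM, which is also scaled to 1000000 per library and is divided by gene length. The RC48 libraries differed among themselves by the GC content of the genes. Across 13018 genes, the log2 ratio of RC48 replicate 1 to the Control mean rose with GC content with a Spearman rho of 0.74, that of replicate 3 with 0.57 and that of replicate 2 with -0.015, and the Control libraries gave -0.22 to 0.21. In RC48 replicate 1 the tenth of genes with the lowest GC content had a median log2 ratio of -0.995, and the tenth with the highest 0.68. Each tested member is therefore given both without and with a correction for this trend. Markers of the cell line were present but not all at the same level in both groups. GATA3 stood at 230 to 238 CPM in Control and 217 to 308 CPM in RC48. EPCAM stood at 140 to 155 CPM in Control and, without overlap, 81.9 to 124 CPM in RC48 (adjusted p = 0.199 in edgeR). Of the 5 epithelial markers, EPCAM was the only 1 without overlap, and 2 of the 5 had a log2 change above 0. Of the 4 luminal markers, KRT20, at 1.94 to 2.03 CPM in Control, was called lower by edgeR (-1.549 on the log2 scale, adjusted p = 0.0489). FOXA1 was lower without overlap and not called (-0.439, adjusted p = 0.194), and GATA3 and ERBB2 overlapped. With the GC correction GATA3 and ERBB2 were also lower without overlap and not called (adjusted p = 0.231 and 0.342). Under it 0 of the 4 luminal and 0 of the 5 epithelial markers had a log2 change above 0. The part of these differences in the results on the members was not tested. The 4 listed of 6 leukocyte markers summed to 1.09 to 1.24 CPM in Control and 1.82 to 3.67 CPM in RC48. PTPRC, which defines leukocytes, stood at 0 in Control and at most 0.061 CPM in RC48. CD3E and CD14 had means of 0.311 and 0.349 CPM in Control and 0.99 and 0.955 CPM in RC48. Both were higher without overlap, as were 17.4% of all genes, and not called by edgeR. The summed basal and the summed fibroblast and endothelial markers overlapped between the groups. Of 3 tested fibroblast and endothelial markers, 1 was higher and 1 lower without overlap. In bulk RNA, fewer cells with a transcript and less of it per cell cannot be told apart.

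The members spanned several orders of magnitude in Control cells. BAX was the highest at 449 ± 32.4 TPM (SD, n = 3), followed by MCL1 at 210 ± 29.0 and BCL2L1 at 190 ± 6.67 TPM. BAK1 followed at 74.5 ± 1.86, BID at 46.1 ± 2.36 and PMAIP1 at 32.7 ± 1.40 TPM. The lower end held BCL2L11 at 12.2 ± 1.49, BIK at 4.46 ± 1.07 and BCL2 at 2.26 ± 0.302 TPM. Among the 4 anti-apoptotic members, nearly all of the summed TPM was MCL1 and BCL2L1, whose ranges overlapped in Control although MCL1 was the higher in 3 of 3 libraries. Every other pair of neighbours in the Control order had ranges that did not overlap. Among the abundant members the order differed after RC48 at 1 place. BCL2L1, at 252 ± 12.0 TPM, stood above MCL1, at 182 ± 43.8 TPM, and their ranges did not overlap. BCL2L11 and BIK, at 10.6 ± 1.93 and 10.1 ± 1.52 TPM after RC48, could not be ordered, since their ranges overlapped.

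**Figure D1:**
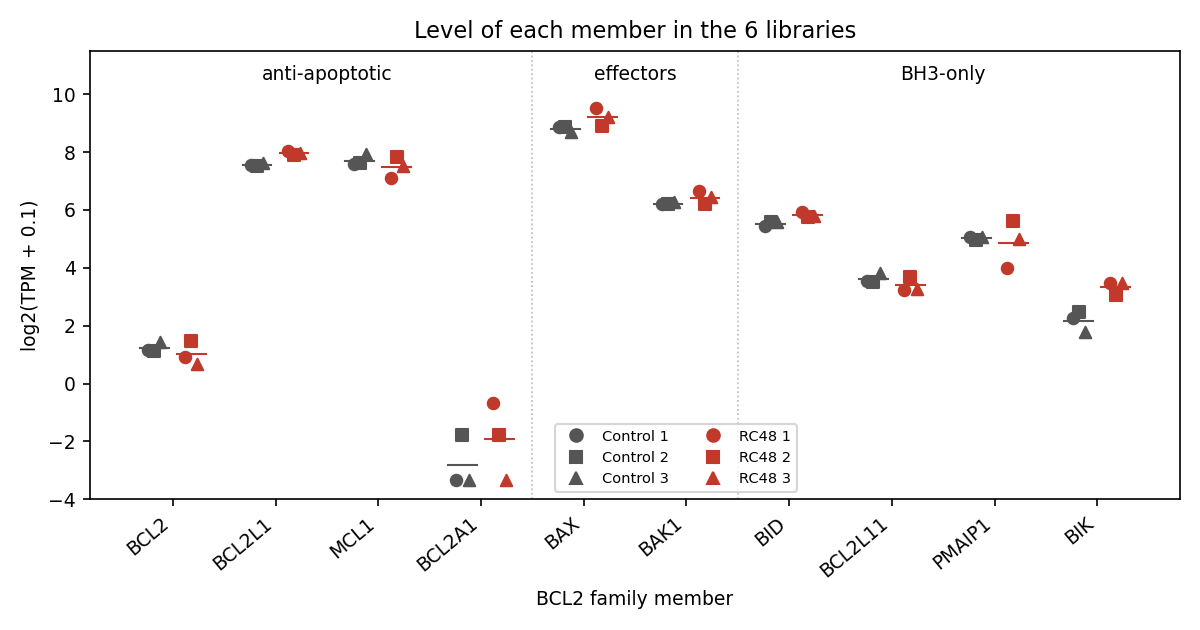
Level of each of the 10 members in the 6 libraries as log2(TPM + 0.1), with 1 point per library (grey Control, red RC48) and a line at the mean of each group. BAX lies at the top, MCL1 and BCL2L1 follow, BCL2 lies far below them, and BCL2A1 lies at the floor, where a value of 0 TPM is drawn at the log2 of 0.1.

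With edgeR's quasi-likelihood test, 0 of the 9 tested members had an adjusted p below 0.05, the threshold for a call, where 288 of 13055 genes were called (2.21%). At an unadjusted p below 0.05 there were 4 members, BCL2L1, BAX, BID and BIK, all higher after RC48, where 11.9% of all genes passed in that direction. DESeq2 called BCL2L1 and BIK higher, where it called 3.45% of its 14145 genes higher. Limma on log2(TPM+1), the scale used by the study, was run without RC48 replicate 2. It called BCL2L1, BAX and BIK higher, where it called 6.41% of its genes higher. EdgeR with the GC correction called BIK alone, where 4.78% of genes were called higher. The number depended on the RC48 libraries. Without RC48 replicate 2 edgeR called 6 members, BCL2 lower and BCL2L1, BAX, BAK1, BID and BIK higher, where 28.3% of genes were called. Without replicate 1 it called BCL2L1 and BIK higher, where 4.61% of genes were called higher. Without replicate 3 or any Control library it called 0 members, where it called 68 to 93 of 13172 to 13218 genes. On log2 CPM the groups did not overlap for 3 members, BCL2L1, BID and BIK, all higher after RC48, where 17.4% of genes were higher without overlap and 14.1% lower.

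BCL2L1, on chromosome 20 (31664452 to 31723963, GRCh38), encodes BCL-xL, which binds BAX, BAK1 and several BH3-only proteins. Its level was 244, 241 and 235 CPM in Control replicates 1, 2 and 3 and 371, 289 and 334 CPM in RC48 replicates 1, 2 and 3. The lowest RC48 library lay above the highest Control library, and the RC48 libraries were spread more widely. The fold change was 1.38, a log2 change of 0.47 with a standard error of 0.125, and edgeR gave an adjusted p of 0.133. The exact two-sided permutation test gave p = 0.1, the smallest that 3 against 3 libraries allow. The adjusted p was 0.0451 by DESeq2 and 0.0294 by limma on log2(TPM+1), which did not include RC48 replicate 2. The transcripts of BCL2L1 have a GC content of 55.7%, and the trend at that content was 0.39 in RC48 replicate 1 on the log2 scale and 0.14 in replicate 3. After the correction, the RC48 libraries lay 0.24, 0.27 and 0.34 above the Control mean on the log2 scale, closer to each other than before, and the fold change was 1.22 with an adjusted p of 0.0606. Counts per gene do not separate BCL-xL from the shorter, pro-apoptotic form BCL-xS that the same gene gives by splicing.

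MCL1, on chromosome 1 (150574558 to 150579610, GRCh38), encodes a short-lived protein that holds BAK1 and binds PMAIP1 and BCL2L11. It stood at 406, 417 and 473 CPM in Control and at 319, 445 and 401 CPM in RC48. The groups overlapped, and RC48 replicate 2 lay above the first 2 Control libraries. The log2 change was -0.155 with a standard error of 0.15 and an adjusted p of 0.509 in edgeR. With the GC correction the log2 change was -0.13 with an adjusted p of 0.492. None of the 17 alternative settings called MCL1, with log2 changes from -0.39 to -0.026.

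BCL2, the founding member and the target of venetoclax, was low throughout. It stood at 7.69, 7.47 and 8.66 CPM in Control and at 4.98, 8.57 and 5.51 CPM in RC48, with 409 counts in all Control libraries together and 331 in all RC48 libraries. RC48 replicates 1 and 3 lay below every Control library and replicate 2 within their range. The log2 change was -0.32 with a standard error of 0.228 and an adjusted p of 0.391 in edgeR. With the GC correction it was -0.22 with an adjusted p of 0.421. Without RC48 replicate 2 the uncorrected log2 change was -0.598 with an adjusted p of 0.0415, in a fit that called 28.3% of genes. BCL2A1, an anti-apoptotic gene known for its expression in blood cells and its activation by NF-kB, had 0, 1 and 0 counts in Control and 3, 1 and 0 counts in RC48. Its 1 count against 4 did not pass the filter, and without the filter edgeR did not call it. At this depth a difference of this size could not be detected. The summed leukocyte markers were also higher in the RC48 libraries, as given above, and their part in the counts of BCL2A1 was not tested.

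BCL2L1 took a larger share of the anti-apoptotic transcripts in every RC48 library than in any Control library. BCL2L1 made up 49.3%, 48.3% and 44.5% of the summed TPM of the anti-apoptotic members in Control and 65.5%, 51.3% and 57.5% in RC48. MCL1 made up 50.1%, 51.1% and 54.9% in Control and 34.0%, 48.1% and 42.1% in RC48, and BCL2 between 0.341% and 0.589% in any library. The ratio of BCL2L1 to MCL1 in TPM was 0.983, 0.945 and 0.812 in Control and 1.93, 1.07 and 1.37 in RC48. The ratio was below 1 in every Control library and above 1 in every RC48 library. MCL1 has a lower GC content than BCL2L1, 48.9% against 55.7%, so the trend moves this ratio too. In counts, the log2 ratio lay 1.068, 0.225 and 0.581 above the Control mean in RC48 replicates 1, 2 and 3 before the correction and 0.594, 0.243 and 0.416 above it after the correction, while the Control libraries lay between -0.129 and 0.097 after it. These shares and ratios have no test across genes behind them, and they were not tested here.

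**Figure D2:**
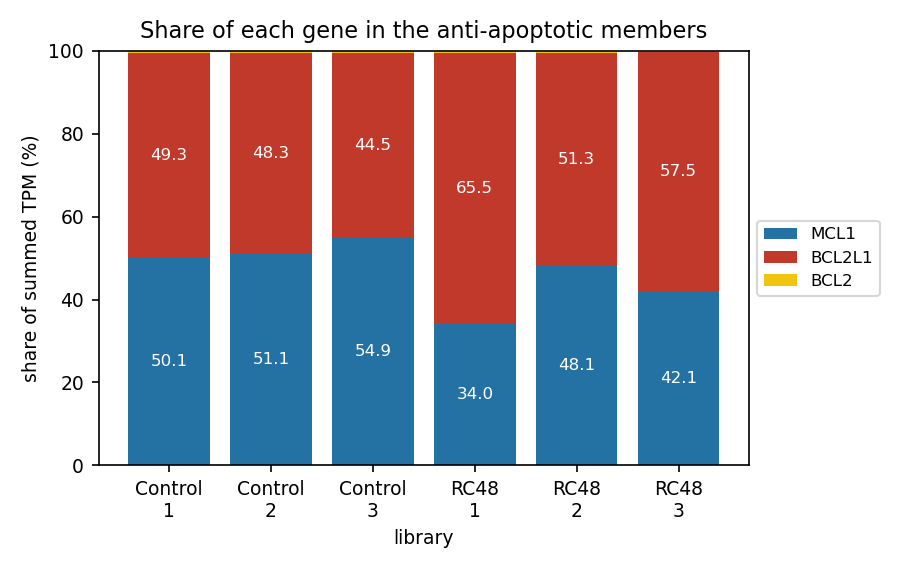
Share of MCL1, BCL2L1 and BCL2 in the summed TPM of the anti-apoptotic members, with 1 stacked bar per library from 0 to 100%. BCL2L1 takes 44.5% to 49.3% of the bar in the Control libraries and 51.3% to 65.5% in the RC48 libraries, and BCL2 is a thin band at the top.

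BAX, on chromosome 19 (48954875 to 48961798, GRCh38), and BAK1, on chromosome 6 (33572552 to 33580276), encode the pore-forming effectors. BAX stood at 143, 144 and 116 CPM in Control and at 288, 144 and 188 CPM in RC48. RC48 replicates 1 and 3 lay above every Control library, while replicate 2 lay within the Control range. The fold change was 1.54 with a log2 change of 0.62, a standard error of 0.246 and an adjusted p of 0.241 in edgeR, and limma on log2(TPM+1), which did not include replicate 2, gave an adjusted p of 0.0292. BAX has the highest GC content of the members, 60.2%, higher than that of 83.8% of tested genes. With the GC correction the log2 change was 0.30 with a standard error of 0.121 and an adjusted p of 0.165. The corrected RC48 libraries then lay 0.505, 0.107 and 0.277 above the Control mean on the log2 scale. The corrected Control libraries lay at 0.078, 0.085 and -0.162, so the groups did not overlap after the correction. Without RC48 replicate 1 the uncorrected log2 change was 0.299. Without replicate 2 it was 0.823 with an adjusted p of 0.0264, in a fit that called 28.3% of genes.

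BAK1 stood at 79.6, 80.7 and 76.1 CPM in Control and at 122, 74.3 and 97.4 CPM in RC48. The RC48 libraries lay on both sides of the narrow Control range. The log2 change was 0.31 with a standard error of 0.182 and an adjusted p of 0.326 in edgeR, and with the GC correction it was 0.041 with a standard error of 0.081 and an adjusted p of 0.771. BAK1 has a GC content of 58.7%, and in RC48 replicate 1 the trend at that content was 0.547, beside a log2 ratio of BAK1 itself of 0.629. BAK1 has processed pseudogenes of near-identical sequence, so reads may be split between them and BAK1, and its counts are uncertain to that extent.

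BIK, on chromosome 22 (43110750 to 43129712, GRCh38), encodes a BH3-only protein of the endoplasmic reticulum that blocks BCL2L1 and BCL2. It had 30, 35 and 19 counts in Control and 83, 53 and 77 counts in RC48, or 1.74, 2.03 and 1.12 CPM against 5.04, 3.03 and 4.29 CPM. The groups did not overlap, with the 3 RC48 libraries on top. The fold change was 2.52, a log2 change of 1.33 with a standard error of 0.29, and edgeR gave an adjusted p of 0.0696. Once corrected for GC content, BIK rose 2.19-fold with a log2 change of 1.13, a standard error of 0.228 and an adjusted p of 0.0224. The adjusted p was 0.00881 by DESeq2 and 0.0184 by limma on log2(TPM+1), which did not include RC48 replicate 2. BIK had the largest log2 change of the 9 tested members with and without the GC correction, from a level that was at most 10.96 TPM in any library. Leaving out RC48 replicate 1 or 2 gave adjusted p-values of 0.0191 and 0.0165, in fits that called 897 and 3726 genes. Leaving out RC48 replicate 3 or any Control library gave 0.186 to 0.288, in fits that called 68 to 93 genes. The log2 change of BIK in those fits was 1.12 to 1.52.

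BID, which is cleaved by caspase 8 and links death receptors to the mitochondrion, stood at 47.1, 51.7 and 47.1 CPM in Control and at 75.1, 54.9 and 61.9 CPM in RC48. The groups did not overlap, although RC48 replicate 2 lay close to the highest Control library. The log2 change was 0.40 with a standard error of 0.148 and an adjusted p of 0.226 in edgeR, and 0.29 with an adjusted p of 0.0992 with the GC correction. BCL2L11 encodes BIM, which binds all anti-apoptotic members and is known to act in mitotic arrest. It stood at 29.5, 29.0 and 33.9 CPM in Control and at 25.9, 30.8 and 25.5 CPM in RC48. The groups overlapped, and the log2 change was -0.17 with a standard error of 0.142 and an adjusted p of 0.462 in edgeR. With the GC correction it was -0.154 with an adjusted p of 0.373.

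PMAIP1 encodes NOXA, which binds MCL1 and promotes its breakdown. It was the member whose RC48 libraries were the most widely spread on the log2 scale relative to Control. It stood at 31.3, 29.0 and 28.4 CPM in Control, a narrow range, and at 16.6, 43.0 and 30.6 CPM in RC48, on both sides of it. The log2 change was 0.024 with a standard error of 0.303 and an adjusted p of 0.962 in edgeR. PMAIP1 has a low GC content of 41.4%, at which the trend was -0.75 in RC48 replicate 1 and -0.29 in replicate 3. With the GC correction the log2 change was 0.29 with a standard error of 0.148 and an adjusted p of 0.253, and without RC48 replicate 1 the corrected value was 0.44 with an adjusted p of 0.0113, in a fit that called 7.03% of genes higher. Its sign without the correction changed with the setting, from -0.542 on log2(TPM+0.1) to 0.307 without RC48 replicate 1.

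Set side by side, the pro-apoptotic members had a higher median log2 change than the anti-apoptotic members, but the ranges of the classes overlapped and 0 members of either were called by edgeR. Of the 6 pro-apoptotic members, 5 had a log2 change above 0, with a median of 0.354 and a range from -0.166 to 1.333. Of the 3 tested anti-apoptotic members, 1 had a log2 change above 0, with a median of -0.155 and a range from -0.32 to 0.467. Over all 13055 genes, 51.4% lay above 0 and the median was 0.016. The median GC content was 54.3% in the pro-apoptotic and 48.9% in the anti-apoptotic members, against 50.1% over all genes. With the GC correction the medians were 0.291 and -0.13, against 0.009 over all genes. The summed TPM of the pro-apoptotic members was 633, 638 and 587 in Control and 937, 676 and 780 in RC48, of which BAX was 70.2% to 79.0% in any library. The ratio of the summed pro-apoptotic to the summed anti-apoptotic TPM was 1.67, 1.67 and 1.32 in Control and 2.32, 1.45 and 1.79 in RC48. These ratios overlapped between the groups, so the summed balance was not separated from the spread between libraries.

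**Figure D3:**
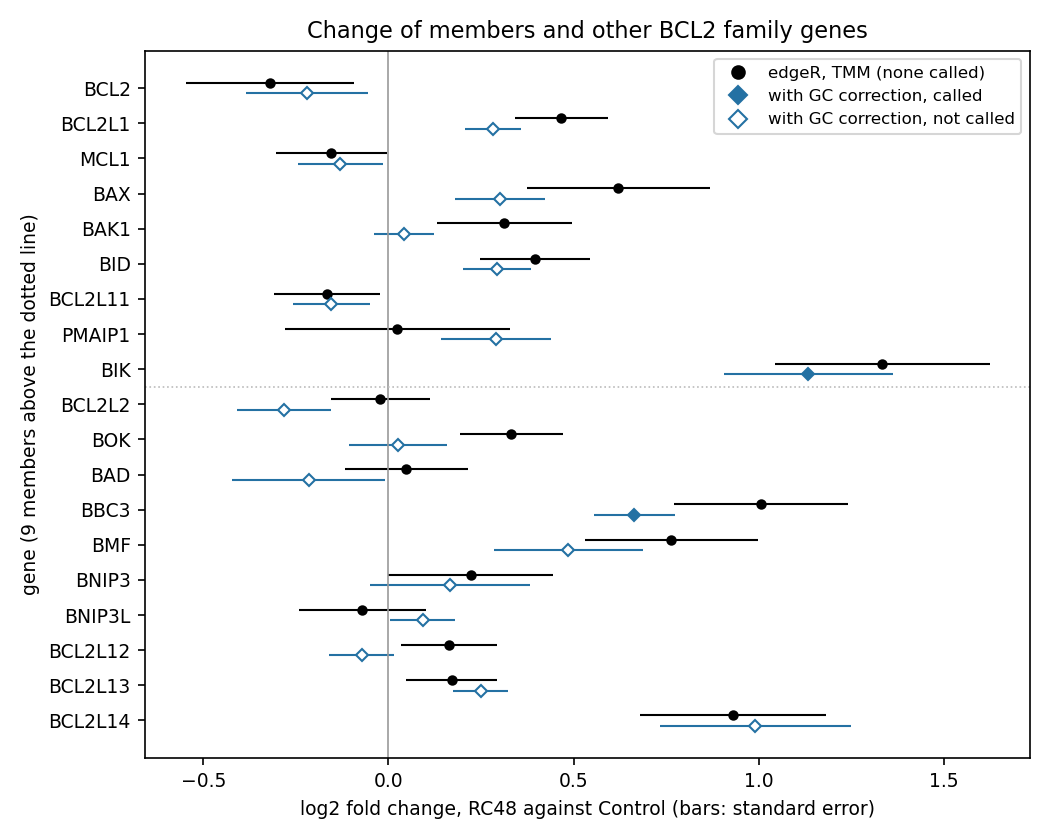
Log2 fold change of RC48 against Control for the 9 tested members (above the dotted line) and 10 other BCL2 family genes, without (black circles) and with (blue diamonds) the GC correction, with bars for the standard error. Filled diamonds mark BIK and BBC3, the genes called with the correction. BAX and BAK1 move toward 0 under it and PMAIP1 moves away from 0.

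The relation of the members to the GC trend differed between the RC48 libraries. In RC48 replicate 1, the 5 tested members with the highest GC content (BAX, BAK1, BIK, BCL2L1 and BID) lay above 0 and the other 4 below 0. In replicate 2, where the median of all genes was flat, BIK and PMAIP1 stood 0.926 and 0.541 above the Control mean on the log2 scale and the others lay between -0.084 and 0.27. BCL2L1 and BIK stood on the same side of 0 in the 3 RC48 libraries before and after the correction, and so did BAX and BID. BCL2L11 lay below 0 in the 3 libraries after it, and BAK1, BCL2, MCL1 and PMAIP1 did not stay on 1 side.

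**Figure D4:**
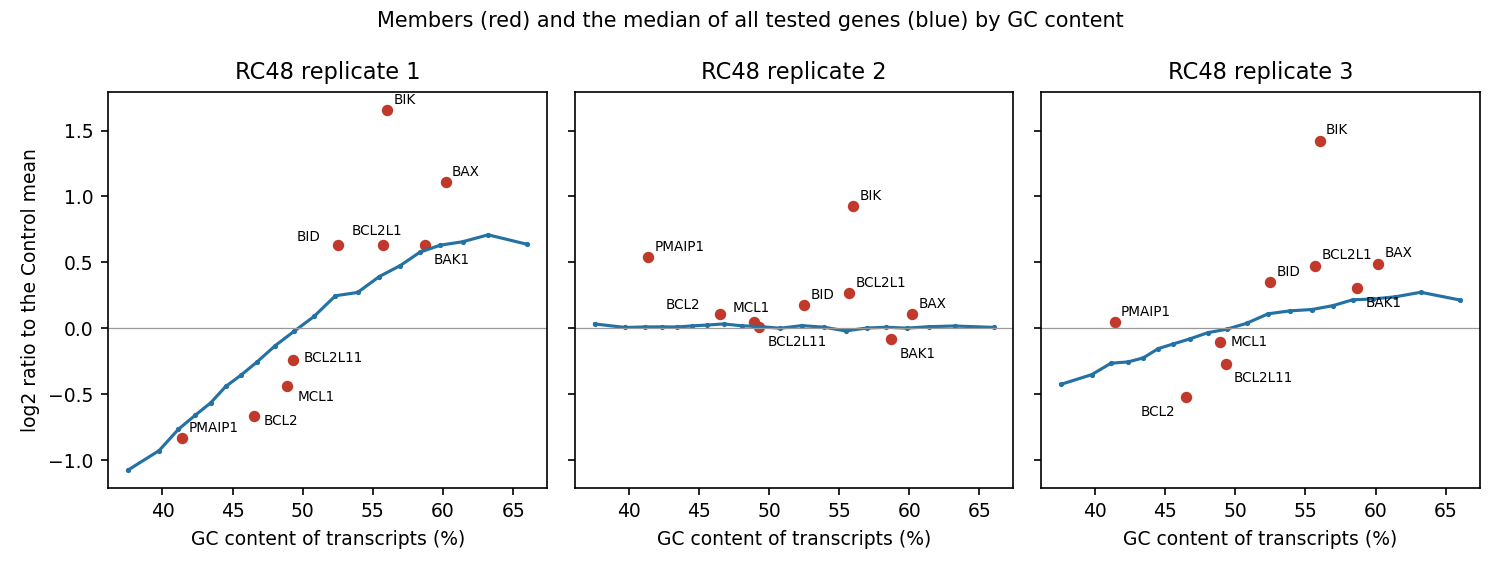
Each RC48 library as a log2 ratio to the Control mean, plotted against the GC content of the transcripts in percent, for the 9 tested members (red points) and for the median of all tested genes in bins of GC content (blue line). The blue line rises steeply in replicate 1, less so in replicate 3 and is flat in replicate 2, and BIK stands above it in all 3.

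Of 13 further BCL2 family genes, 10 passed the filter. With edgeR 0 of the 10 were called, 4 of them (BBC3, BMF, BOK and BCL2L14, all higher) had an unadjusted p below 0.05, where 11.9% of all genes passed in that direction, and the median log2 change was 0.196. DESeq2 called 1 of them, where it called 3.45% of its genes higher, and limma on log2(TPM+1) called 2, where it called 6.41% higher. BBC3 encodes PUMA, a BH3-only protein that is a target of p53. It stood at 9.71, 11.1 and 8.89 CPM in Control and at 27.1, 15.2 and 17.4 CPM in RC48, with no overlap. The log2 change was 1.01 with a standard error of 0.236 and an adjusted p of 0.0878, and with the GC correction BBC3 rose 1.58-fold with an adjusted p of 0.00993. The corrected RC48 libraries lay 0.794, 0.608 and 0.579 above the Control mean on the log2 scale. BMF, a BH3-only gene, had a log2 change of 0.764 with an adjusted p of 0.17. BCL2L14 had 0.93 with an adjusted p of 0.135, from below 1 CPM in Control, and BOK, an effector-like gene, had 0.331 with an adjusted p of 0.255. BOK lay near 0 with the GC correction, at 0.026. Without RC48 replicate 2, 3 of the 10 were called, where 28.3% of all genes were. Without replicate 1 it was 1, where 897 of 13147 genes were called. Without replicate 3 or any Control library it was 0, where 68 to 93 genes were called over all genes.

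The other tested genes of this list gave values closer to 0. BCL2L12, BCL2L13 and BNIP3 had log2 changes of 0.164, 0.171 and 0.222. BAD, BCL2L2 and BNIP3L lay at 0.048, -0.022 and -0.071. The adjusted p-values of these 6 genes were between 0.395 and 0.919 in edgeR. Some reads of BCL2L2, an anti-apoptotic gene, are shared with the readthrough gene BCL2L2-PABPN1, so its counts are uncertain. HRK, BCL2L10 and BCL2L15 were listed with too few counts to be tested.

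The genes that act beside or below BAX and BAK1 were not called. Of the 14 genes of this list, among them the caspases, the VDAC channels, APAF1 and XIAP, 0 were called by edgeR. Their median log2 change was -0.062, and 0.037 with the GC correction. At an unadjusted p below 0.05 there were 2, where 2499 of 13055 genes passed. Both were lower after RC48: CYCS, which encodes cytochrome c, at -0.557 with an adjusted p of 0.199, and VDAC1, a channel of the outer mitochondrial membrane, at -0.326 with an adjusted p of 0.241. The groups of both genes did not overlap, where 14.1% of all genes were lower without overlap. DESeq2 and the GC correction called 0 of the 14. Limma on log2(TPM+1) called 3, where it called 2836 of 12363 genes. Leaving out RC48 replicate 2 gave 5 calls, where 28.3% of all genes were called. Of 8 genes known to act on the turnover of MCL1 or BIM protein, 7 were tested. EdgeR called 0 of them, with 0 at an unadjusted p below 0.05. Their median log2 change was -0.102, with 2 of the 7 above 0. With the GC correction the median was 0.236, with 5 of the 7 above 0. The smallest adjusted p-values in edgeR were those of USP13, a deubiquitinase of MCL1, at -0.434 (adjusted p = 0.262), and of CDK1, the mitotic kinase, at -0.915 (adjusted p = 0.265). With the GC correction USP13 stood at -0.311 (adjusted p = 0.139) and CDK1 at -0.544 (adjusted p = 0.114). DESeq2 and the GC correction called 0 of the 7. Limma on log2(TPM+1) called 2, and 2 were called without RC48 replicate 2, with the shares of all genes given above.

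The NF-kB survival genes, chosen with earlier results known, ranged from -0.566 to 3.542 in log2 change, a range that overlapped with that of the members, and the difference between the lists was not tested. NF-kB is a transcription factor family that is known to drive BCL2A1, BCL2L1 and other survival genes. Of the 11 genes, 5 were called higher and 0 lower, where 1.98% of all genes were called higher, and the median log2 change was 1.12. BIRC3, an inhibitor of cell death below the TNF receptor, stood at 2.37, 1.85 and 1.59 CPM in Control and at 12.1, 18.8 and 15.98 CPM in RC48, an 8.03-fold rise with an adjusted p of 0.000953. TNFAIP3, a feedback inhibitor of NF-kB, rose 11.7-fold from 5.26, 4.46 and 5.18 CPM to 53.2, 62.6 and 58.1 CPM. NFKBIA, which holds NF-kB in the cytoplasm, rose 3.69-fold, NFKB2 4.05-fold and RELB 7.78-fold. After the GC correction 8 of the 11 were called, all higher. In the same libraries BCL2A1 remained at 3 counts or fewer, and BCL2L1 was 1.38-fold higher, not called by edgeR and called by DESeq2 and limma as given above.

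Of 12 p53 targets, 1 was called, where 2.21% of all genes were called. The median log2 change was 0.078, and 0.165 with the GC correction. CDKN1A, which encodes the cell cycle inhibitor p21, rose 1.86-fold with a log2 change of 0.897 and an adjusted p of 0.00917. The next smallest adjusted p was that of TP53I3, at 0.434 on the log2 scale with an adjusted p of 0.199. Among the genes of the BCL2 family known as p53 targets, BAX, BBC3 and PMAIP1 were not called by edgeR without the correction, as given above. Without any 1 Control library, or without RC48 replicate 3, 0 of the 12 were called, where 68 to 93 genes were called over all genes. Of 9 genes of the ATF4 and CHOP stress response, 0 were called by edgeR. At an unadjusted p below 0.05 there were 3, all higher, where 11.9% of all genes passed in that direction. The median log2 change was 0.106, and -0.056 with the GC correction. The smallest adjusted p was that of ATF3, at 0.424 on the log2 scale with an adjusted p of 0.124, followed by CHAC1 and PPP1R15A at 0.484 and 0.373, both with an adjusted p of 0.157. DESeq2 called 1 of the 9, where it called 676 of 14145 genes. The GC correction called ATF3 higher and TRIB3 lower, where it called 947 of 13018 genes.

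**Figure D5:**
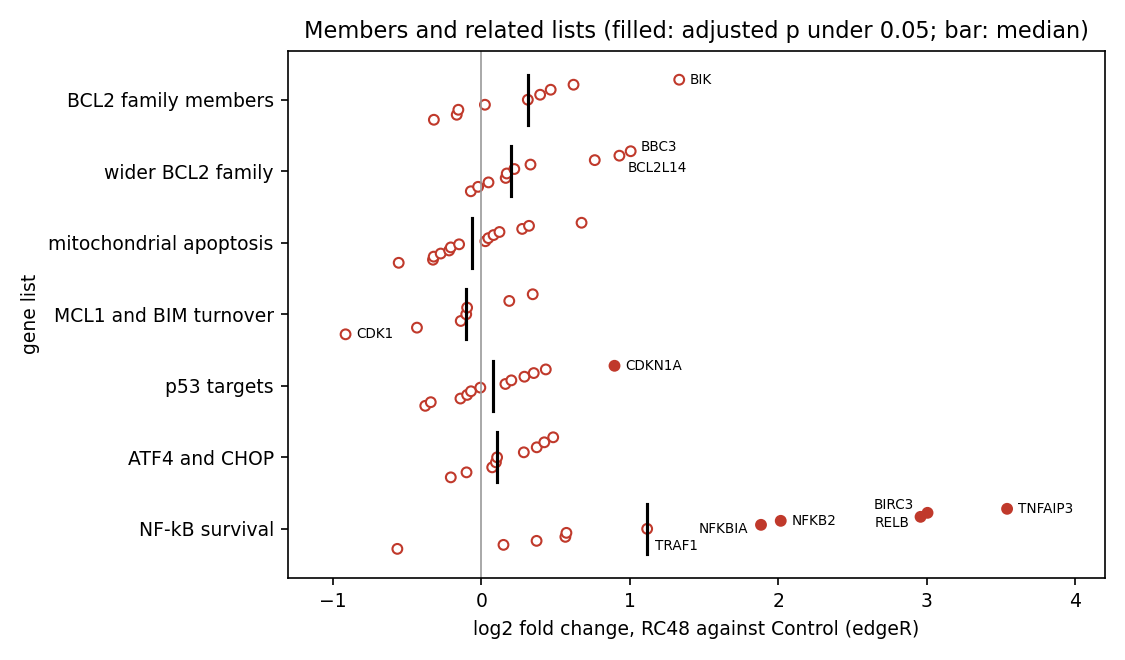
Log2 fold change of RC48 against Control for the tested genes of each list, with 1 point per gene, filled where the adjusted p was below 0.05 in edgeR, and a black bar at the median of the list. The NF-kB survival genes reach 3.54 for TNFAIP3, while the 9 members lie between -0.32 and 1.333.

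The sequence upstream of the start site is shown for BCL2L1, the anti-apoptotic member with the largest log2 change, and for NFKBIA, an NF-kB target that was called, to set a promoter with a match to the NF-kB motif beside one without. The sequences are the 250 bases before the start site, read 5′ to 3′ on the strand of the gene from a RefSeq promoter table (GRCh38.p14), in which 8 of the 10 members were found. MCL1 and BIK were not among them. The capitals mark a match to the 10-base kB motif, which was searched on both strands and occurs in 5.21% of the 35116 promoters of the table.
BCL2L1, chr20:31723964-31724213, minus strand: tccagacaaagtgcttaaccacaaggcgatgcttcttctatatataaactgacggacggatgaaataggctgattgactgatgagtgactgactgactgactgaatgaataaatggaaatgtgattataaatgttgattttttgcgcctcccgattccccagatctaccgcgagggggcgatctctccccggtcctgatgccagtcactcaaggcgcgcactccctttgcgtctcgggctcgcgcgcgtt
NFKBIA, chr14:35404750-35404999, minus strand: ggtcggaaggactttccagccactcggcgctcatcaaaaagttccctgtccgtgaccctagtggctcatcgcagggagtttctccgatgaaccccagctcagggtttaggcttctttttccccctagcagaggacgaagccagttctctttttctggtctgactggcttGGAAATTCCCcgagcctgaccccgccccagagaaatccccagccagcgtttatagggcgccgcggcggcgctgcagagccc

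The kB motif matched in 0 of the 8 member promoters and in 6 of the 10 NF-kB survival promoters in the table. Those were NFKBIA, BIRC3 and TNFAIP3, which edgeR called, and CFLAR, NFKB1 and REL, which it did not call. REL had a log2 change of -0.566, and NFKB2, which was called, had 0 matches. In the wider family, the motif matched in 1 of 10 promoters, that of BMF. The match in NFKBIA lies 81 to 72 bases before the start. The motif TTCNNNGAA, which STAT factors bind, occurred in 6.57% of all promoters and in 1 of the 8 members, BCL2A1, at 168 to 160 bases before the start. The AP-1 motif TGANTCA occurred in 6.57% of all promoters and in 0 of the 8 members. A match is a description of these letters, and binding was not measured here.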

How the data were processed

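Total RNA of 3 Control and 3 RC48 libraries of SW780 was analysed by RNA sequencing. The authors used SOAPnuke to filter the reads, Bowtie2 for mapping and RSEM for counting. The labels name the hg38 build, and no versions or annotation are given in the sources used here. The deposited values are RSEM expected counts per gene without normalization, of which 11.7% to 15.0% per library are not whole numbers. The authors also deposited TPM for 5 libraries. For RC48 replicate 2, TPM was derived from its counts with effective lengths taken from the other libraries. As a check, these steps were run on RC48 replicate 3, where the derived and deposited TPM differed by 0.0219 on the log2 scale in the median of 11982 genes.

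Rounded expected counts were filtered with filterByExpr and scaled by TMM. The comparison of RC48 with Control used the quasi-likelihood test of edgeR 4.0.16 without covariates (R 4.3.3), and p-values were adjusted over all genes tested by Benjamini-Hochberg, with calls at 0.05. Standard errors were derived from the F statistic. Permutation tests of single genes were exact, two-sided and made on log2 CPM. For the GC correction, the loess trend (span 0.3) of each library on the GC content of the GENCODE release 29 transcripts, known for 16321 genes, was subtracted as an offset. Alternative tools were DESeq2 1.42.0 on the rounded counts of all 6 libraries and limma 3.58.1 on log2(TPM+1) and log2(TPM+0.1). The limma fits used the 5 libraries of deposited TPM. Alternative settings of edgeR were RLE factors, unscaled library sizes, genes without any filter, a minimum of 10 counts in each library, the replicate number as a block (also together with the GC correction), and leaving out 1 library at a time. On log2(TPM+1) the median log2 change of all genes was -0.108, so values on that scale stand relative to it. Positions are those of a RefSeq table (GRCh38.p14) matched by NCBI gene number for 16360 of 16390 genes.

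Library totals differed by at most 1.093 times. Limits on counts cover counting error only. The procedure was tested on simulated data without a GC trend. Of 100 genes changed 1.5-fold it called 17, and of 100 changed 2-fold it called 83, with 7 unchanged genes called. A gene that was not called may therefore still have changed. The members and all gene lists were chosen with earlier results of these data known. Named are all members, all genes of the wider BCL2 family list, and from each other list the called genes or, where fewer than 2 were called, the 2 with the smallest adjusted p and any gene tied with them. Outside this rule, and after their values were seen, TRIB3 is named as called with the GC correction. The markers KRT20, FOXA1, ERBB2, CD3E and CD14 are named in the same way for the check of the cell type. So are CFLAR, NFKB1 and REL for the kB motif, and BIRC2, CFLAR, CASP8 and TNFRSF10B in the closing section. For a called member, the genes with the most similar pattern were to be named, and since edgeR called none without correction, none are. Software also included Python 3.11.15, numpy 2.4.6, pandas 2.3.3, scipy 1.17.1 and matplotlib 3.10.9.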

Additional observations from a re-analysis of the deposited data

How the results depend on the processing

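The calls depended on the setting, and the cause of this was not tested. The genes called over all genes, 288 by edgeR, were 676 by DESeq2, 2836 and 2626 by limma on log2(TPM+1) and log2(TPM+0.1), 947 with the GC correction, 701 with the GC correction and the replicate block, and 68 to 3726 with 1 library left out. Members called, 0 by edgeR, were 2, 3, 3, 1 and 1 in the same settings and 0 to 6 with 1 library left out. Without RC48 replicate 1 and with the GC correction, 1565 genes and 3 members (BCL2L1, PMAIP1 and BIK) were called. RLE factors, library sizes alone and both filters called 0 members. The deviations of same-numbered libraries from their group means had correlations of -0.013, -0.116 and 0.018. Differently numbered libraries gave -0.102 to 0.127. The RC48 libraries also differed by the GC trend, so these values cannot decide whether the numbers pair the libraries. With the replicate block 331 genes, 1 member (BIK) and 1 gene of the wider family (BBC3) were called.

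The lists held 10 tested genes of the wider family, 14 of mitochondrial apoptosis and 7 of MCL1 and BIM turnover. They also held 11 of NF-kB survival, 12 p53 targets and 9 of ATF4 and CHOP. In the lists, DESeq2 called 1 gene of the wider family and 1 of ATF4 and CHOP, where it called 676 of 14145 genes. Limma on the respective pseudocounts called 2 and 1 of the wider family, 3 and 3 of mitochondrial apoptosis and 2 and 1 of turnover. It called 3 and 3 of the p53 targets, where it called 2836 and 2626 of 12363 genes. The GC correction called 1 of the wider family, 2 of ATF4 and CHOP and 8 NF-kB survival genes, where it called 947 of 13018 genes. With the block added it called 1 of the wider family, where it called 701 of 13018 genes. With 1 library left out the calls were 0 to 3 in the wider family, 0 to 5 in mitochondrial apoptosis and 0 to 2 in turnover. They were 5 to 10 in NF-kB survival, 0 to 4 in p53 targets and 0 to 2 in ATF4 and CHOP. The highest of these counts were all reached without RC48 replicate 2, where 3726 of 13185 genes were called. Without RC48 replicate 1 and with the GC correction the calls were 1, 1, 1, 8, 3 and 3 in the same order, where 1565 of 13109 genes were called.

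The log2 changes of the members other than PMAIP1 kept their sign in the 17 alternatives. PMAIP1, at 0.024, was -0.0187 with library sizes alone, -0.522 and -0.542 by limma, -0.0701 with the replicate block, and -0.00593, -0.326 and -0.00575 without Control 3, RC48 2 and RC48 3, in a range from -0.326 to 0.307 with 1 library left out. In the wider family, BAD was -0.00788 with library sizes alone, -0.181 and -0.183 by limma, -0.216 with the GC correction, -0.249 with the block added, and -0.081 and -0.0725 without Control 3 and RC48 3. BCL2L2 was 0.0538 and 0.00438 without Control 3 and RC48 2, and -0.0953 without RC48 1. BNIP3 was -0.0578 and -0.0699 and BCL2L13 -0.0348 and -0.0363 by limma. BNIP3L was 0.0915 with the GC correction, 0.088 with the block added, 0.0624 and 0.13 without RC48 1, before and after correction, and -0.265 without RC48 2. BCL2L12 was -0.0716 with the GC correction, -0.0741 with the block added and -8.58e-05 without RC48 1 and with the correction. In CPM, BCL2L1 made up 35.3% of the anti-apoptotic members in Control and 45.8% in RC48, and MCL1 63.5% and 53.3%, since CPM is not divided by length. Without RC48 replicate 2, the RC48 shares in TPM were 61.5% and 38.0%.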

Other observations

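CFLAR and BIRC2, of 4 genes just outside the BCL2 family on the death receptor side, were called higher with the GC correction. It called 4.78% of all genes higher, and it did not call CASP8 and TNFRSF10B. CFLAR, which encodes the caspase 8 inhibitor c-FLIP, had a log2 change of 0.566 with an adjusted p of 0.0886 in edgeR and rose by 0.693 on the log2 scale with an adjusted p of 0.0294 with the GC correction. BIRC2, a related inhibitor of cell death, had 0.149 with an adjusted p of 0.678 and rose by 0.402 with an adjusted p of 0.0411 with the correction. With the replicate block added to the correction, BIRC2 had an adjusted p of 0.0793. CASP8, the caspase that cleaves BID, had -0.217 with an adjusted p of 0.352 and -0.018 with the correction. TNFRSF10B, which encodes the TRAIL receptor DR5, had 0.29 with an adjusted p of 0.213 in edgeR and 0.236 with an adjusted p of 0.113 with the correction. These 4 genes were chosen after their values were seen.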
